A study of Mus musculus with 60 samples.

Results

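Poly-A sequencing of whole kidney was compared between 3 Ftsj1-deficient and 3 wildtype mice, all male; the method reads mainly messenger RNA. These 6 libraries are part of a series of 60 libraries from 5 organs, and all named rows of the kidney table are described here: 55290 genes, of which 35330 had reads and 23313 were tested. The mice were 4 months old and fed ad libitum. They came as a set of 2 brothers, 1 of them deficient, and a set of 4 brothers, 2 of them deficient. The labels give the genotype as Ftsj1_DF or WT and do not say how the gene was disrupted. Whole kidney was pulverised, so that all cell types of the organ, and any tissue left on it, enter 1 RNA sample, and fewer cells of a type cannot be told apart from less RNA per cell.

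FTSJ1 is an X-linked methyltransferase that puts methyl groups on ribose of the tRNA anticodon loop, working with the partner proteins THADA and WDR6, and its loss in humans causes intellectual disability. The kidney is built mostly of proximal tubule, whose cells reabsorb filtered solutes, secrete organic ions and obtain much of their energy by burning fatty acids. The nuclear receptor PPAR alpha switches on fatty acid oxidation genes there, and androgens make the proximal tubule of male mice differ from that of females in transporters and cytochrome P450 enzymes.

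Fold changes, standard errors and adjusted p-values below are those of the authors' deposited table (DESeq2, Wald test, Benjamini-Hochberg adjustment), written as log2 of Ftsj1-deficient over wildtype with n = 3 against 3. A gene rose or fell when its adjusted p was under 0.05. The mean level is the table's mean of normalised reads over the 6 libraries. The table gives no value per library, but its mean levels are sums of whole reads divided by 6 size factors, so that the reads of low genes could be worked out: this succeeded for 8531 of 8567 genes with a mean level of 10 to 500 and for 60 of 62 genes that passed the test at 10 to 900. Values per library are normalised reads (reads over the size factor), given in the order deepest, middle and shallowest library of each genotype. Libraries could be tied to a genotype but not to a mouse.

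Sequencing depth was very uneven. The size factors were 4.81, 1.02 and 0.643 for the wildtype libraries and 1.51, 0.802 and 0.268 for the deficient ones, an 18-fold range. For genes of low level the shallowest deficient library therefore adds few reads. Genes of neighbouring organs were high in 2 libraries. Those of the adrenal gland, both its steroid-making cortex and its catecholamine-making medulla, were high in the middle wildtype library. Cyp11b2, the aldosterone synthase, stood at 1.66, 559 and 0 normalised reads in wildtype and at 0 in all deficient libraries, and Nr5a1, the steroidogenic factor, at 2.08, 729.7 and 3.11 in wildtype and 2.64, 15 and 3.73 in deficient kidney. Chga, a granule protein of chromaffin cells, was at 3.53, 4084 and 12.4 in wildtype against 10.6, 9.97 and 0 in deficient libraries. Digestive enzymes of the pancreas were high in the deepest deficient library instead: Cpa1, a carboxypeptidase, read 4383, 0 and 7.47 in the deficient libraries and 9.76, 1.97 and 3.11 in the wildtype ones. All 7 adrenal cortex markers with reads and 6 of the 7 pancreas markers with reads carry no p-value in the authors' deposited table, which leaves it empty for 55 genes with a count far outside the others. Of the genes whose reads were worked out, 13 were over 10 times higher in the middle wildtype library than in any other and 11 in the deepest deficient library, against 0 to 2 in each of the remaining 4. Their part in the results below was not tested. The middle wildtype and deepest deficient libraries can be followed only for genes given with values per library. Of the 230 genes that passed the test, reads were worked out for 60, and for the others these 2 libraries cannot be seen apart.

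**Figure D1:**
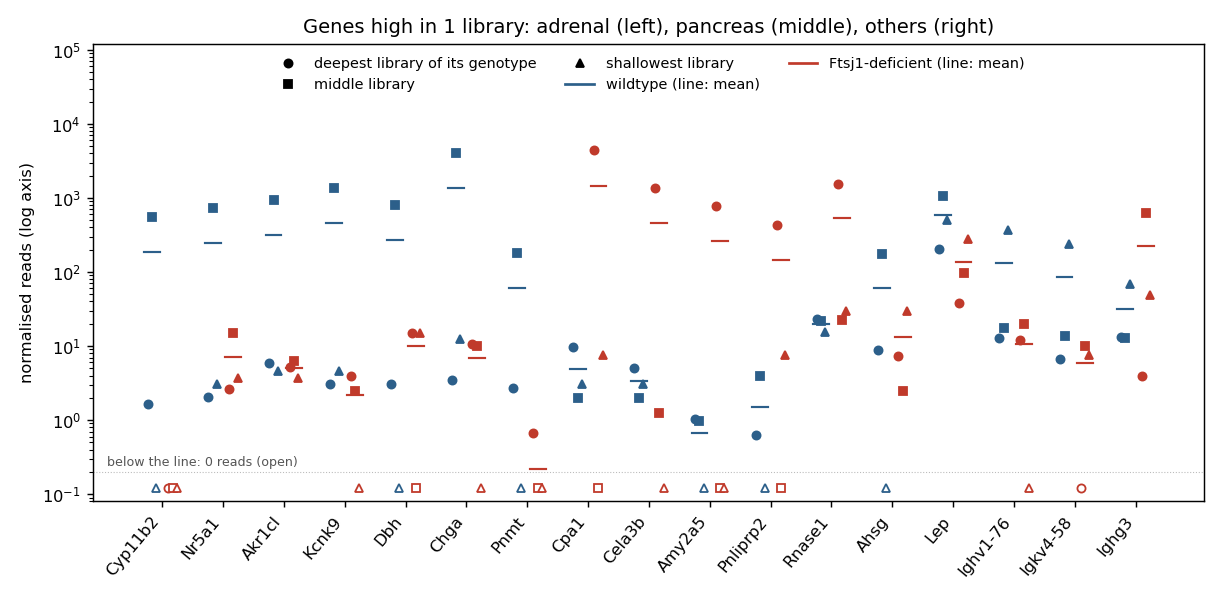
Normalised reads (log axis) in each of the 6 kidney libraries, mostly for genes that 1 library dominates: adrenal genes on the left, pancreas genes in the middle, and Ahsg, Lep and immunoglobulin genes on the right. Lep is not dominated by 1 library, at 207, 1068 and 496 in wildtype and 38.3, 96 and 276 in deficient libraries. Blue marks wildtype, red Ftsj1-deficient, lines are group means, and open symbols at the bottom are libraries with 0 reads. Chga reaches 4084 in the middle wildtype library and Cpa1 4383 in the deepest deficient one, with at most 12.4 in the other libraries for both genes.

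Ftsj1 itself was lower in the kidneys labelled deficient. Its mean level was 2744 and its log2 fold change -2.84 ± 0.13, adjusted p = 4.16e-97, which leaves 14% of the wildtype level. By RefSeq order in GRCm38.p6, the 10 tested genes on either side of it were also examined: 0 of these 20 passed, with log2 fold changes from -0.30 to 1.01, the highest that of Gm14865 at a mean level of 13.2. Its partner genes Thada (0.0028 ± 0.083) and Wdr6 (-0.063 ± 0.11) did not pass, nor did any of the other 31 tested tRNA-modifying enzymes listed, whose range was -0.13 to 0.24.

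Across the kidney, 230 of 23313 genes passed the test (0.987%), 79 rising (0.339%) and 151 falling (0.648%). At an unadjusted p under 0.05 there were 1360 genes (5.83%), 612 above and 748 below 0. The median log2 fold change over all tested genes was 0.0046, with 51.3% of genes above 0. Of the genes that passed, 14 risen and 39 fallen ones changed by more than 2-fold, and the medians of the risen and fallen genes were 0.58 and -0.65 on the log2 scale. Of the 60 genes past the test whose reads were worked out, 45 had a mean level under 500, and in 44 of those the 3 libraries of 1 genotype all lay above the 3 of the other, against 11.6% of all genes worked out at a mean level of 10 to 500. These genes were chosen by a test on the same libraries. Groups lying apart, here and below, follow largely from that choice and add no support to the calls.

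**Figure D2:**
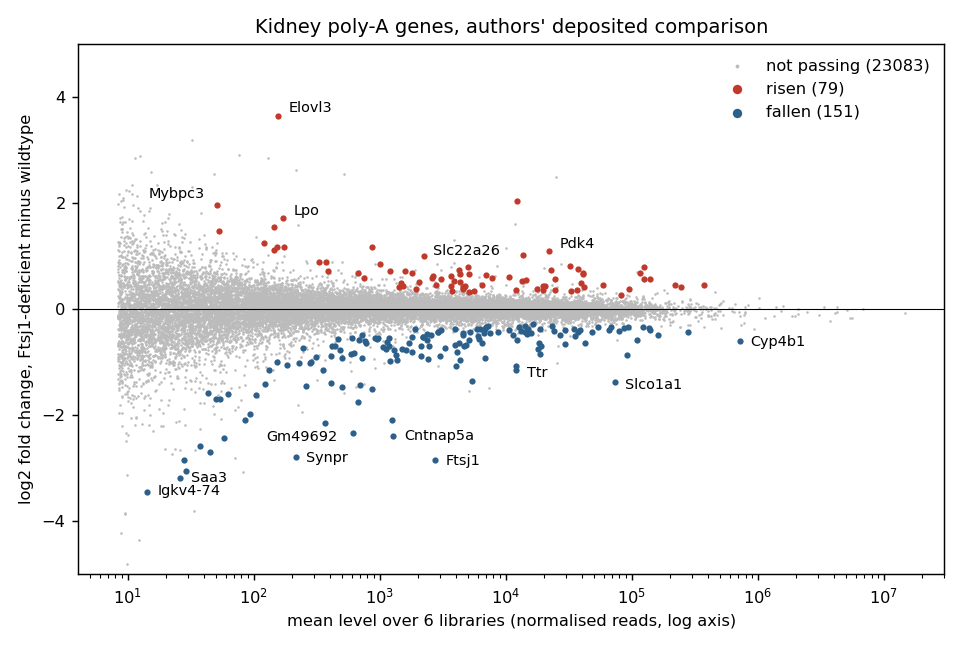
Each point is a tested kidney gene, placed by its mean level over the 6 libraries (log axis) and its log2 fold change, Ftsj1-deficient minus wildtype, as deposited; 2 genes lie outside the plotted range. The 79 risen genes (red) include Pdk4 at high level and Elovl3 at low level, and the 151 fallen genes (blue) include Ftsj1, Cntnap5a, Synpr and the abundant Slco1a1 and Cyp4b1.

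The following were among the fallen genes with the smallest p or the largest fold. Cntnap5a, a neurexin-family adhesion protein, fell by 2.40 on the log2 scale (SE 0.20, adjusted p = 4.83e-30), from levels implied by its mean and fold of about 2164 in wildtype and 409 in deficient kidney. Neurog2, a neurogenic transcription factor, read 1249.7, 1318 and 1341 in wildtype and 513, 465 and 373 in deficient libraries, and Synpr, a synaptic vesicle protein, 450.1, 484 and 198 and 56.2, 62.3 and 41.1. The groups did not overlap for either gene, and the table gives log2 fold changes of -1.50 ± 0.14, adjusted p = 3.69e-24 for Neurog2 and -2.79 ± 0.33, adjusted p = 2.42e-14 for Synpr. Skint11, of a family of immunoglobulin-like membrane proteins, read 581, 835 and 391 in wildtype and 145, 128 and 131 in deficient libraries (-2.15 ± 0.25, adjusted p = 2.52e-14). Dnah9, an axonemal dynein of motile cilia, read 727, 773 and 717 against 333, 181 and 284 (-1.47 ± 0.20, adjusted p = 4.75e-10), and Nwd2 365, 462 and 313 against 165, 118 and 127 (-1.45 ± 0.23, adjusted p = 8.89e-08). In each of these the deficient libraries all lay below the wildtype libraries.

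Among the other fallen genes with very small p were Anxa13, an epithelial annexin (-0.95 ± 0.11, adjusted p = 1.3e-13), and Gm21321 (-0.93 ± 0.13, adjusted p = 4.72e-09). The predicted genes Gm30551 (-2.09 ± 0.19, adjusted p = 3.69e-24), Gm49692 (-2.34 ± 0.22, adjusted p = 3.67e-22) and Gm15895 (-1.76 ± 0.24, adjusted p = 3.03e-10) fell further. Gm49692 read 1226, 873 and 991 in wildtype and 148, 284 and 175 in deficient libraries, and Gm15895 1299, 1183 and 668 and 275, 406 and 243, so that neither overlapped. At low level, 3 zinc finger genes fell together: Zfp600 read 74.6, 57 and 59.1 against 3.31, 17.4 and 14.9, Zfp978 71.2, 81.6 and 74.7 against 26.4, 16.2 and 29.9 and Rex2 106, 96.4 and 77.8 against 27.8, 36.1 and 29.9. Their log2 fold changes were -2.58 ± 0.58, -1.69 ± 0.40 and -1.60 ± 0.36. Zfp978 and Rex2 are neighbours on chromosome 4, and near-identical copies of such genes can share reads, so their single values are uncertain.

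Among risen genes of low level, the largest fold was that of Elovl3, an elongase that makes long saturated fatty acids. It read 17.4, 48.2 and 3.11 in wildtype and 274, 236 and 358 in deficient libraries, so that even the highest wildtype library lay 4-fold or more below the lowest deficient one (3.65 ± 0.89, adjusted p = 0.00674). Without the middle wildtype library the log2 ratio of means was 4.82. Lpo, lactoperoxidase, read 89.3, 103 and 42 against 232, 191 and 373 (1.71 ± 0.32, adjusted p = 5.18e-05). Mybpc3, a sarcomere protein, read 27.4, 15.7 and 15.6 against 56.9, 68.5 and 123 (1.96 ± 0.45, adjusted p = 0.00277), and Crybg2 493, 471 and 644 against 1003, 1766 and 839.9 (1.18 ± 0.23, adjusted p = 9.7e-05). Deficient libraries were above every wildtype library for all 4 genes. Other risen genes of low level were Gm7096 (1.18 ± 0.30, adjusted p = 0.0146), a neighbour of organic anion transporter genes, Gm42567 (1.12 ± 0.30, adjusted p = 0.0252) and the pseudogene Psmb5-ps (1.48 ± 0.39, adjusted p = 0.0206), whose reads may come from other copies.

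**Figure D3:**
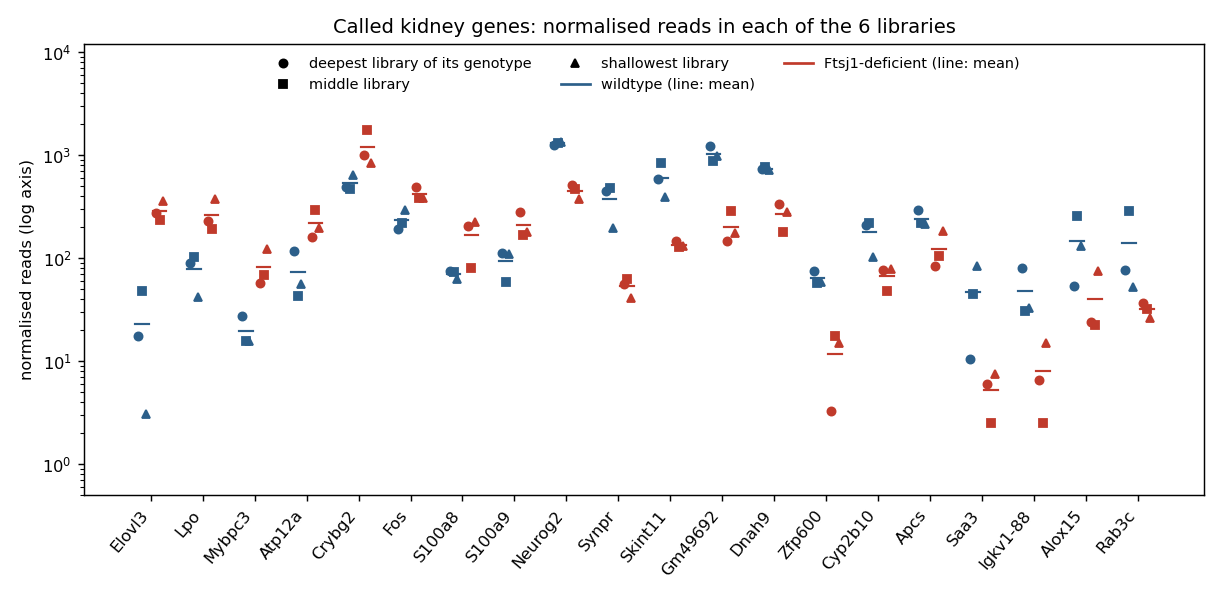
Normalised reads (log axis) in each of the 6 kidney libraries for 20 genes that passed the test at a mean level under 900, risen genes on the left and fallen genes from Neurog2 on. Blue is wildtype and red Ftsj1-deficient, symbols mark the depth rank of a library within its genotype, and lines are group means. Neurog2 stands between 1250 and 1341 in wildtype and between 373 and 513 in deficient libraries, while Rab3c and Alox15 are highest in the middle wildtype library, at 289 and 257; without it their log2 ratios of means are -1.02 and -1.20.

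Of 31 tested genes that PPAR alpha is known to switch on, 12 rose, 0 fell and 19 did not pass, beside 0.339% risen and 0.648% fallen over all tested genes, and their median log2 fold change was 0.33 against 0.0046 over all tested genes. Members of this and the other lists were chosen with earlier results of these data known. Their counts and medians are therefore description only, and no set test was run. Pdk4, a kinase that holds back glucose oxidation in the mitochondrion, rose by 2.13-fold (1.09 ± 0.12, adjusted p = 8.83e-16), and Angptl4, a secreted inhibitor of lipoprotein lipase, by 1.66-fold (0.73 ± 0.12, adjusted p = 2.83e-07). Among the enzymes that handle acyl-CoA, Acsl1, which makes it (0.57 ± 0.13, adjusted p = 0.00161), and the thioesterases Acot1 (0.57 ± 0.15, adjusted p = 0.0227), Acot2 (0.52 ± 0.10, adjusted p = 3.79e-05) and Acot3 (0.63 ± 0.13, adjusted p = 0.000575), which split it, all rose. The omega-hydroxylases Cyp4a10 (0.79 ± 0.15, adjusted p = 0.00012) and Cyp4a31 (0.38 ± 0.10, adjusted p = 0.0178) rose as well. So did Ehhadh of the peroxisomal pathway (0.42 ± 0.11, adjusted p = 0.0295), Hadha of the mitochondrial one (0.27 ± 0.076, adjusted p = 0.0445, a call lost when fold changes are centred on their median) and Vnn1, a pantetheinase (0.33 ± 0.09, adjusted p = 0.0265). Cyp4a32, of the same family as Cyp4a10 but not in the list, fell (-0.50 ± 0.14, adjusted p = 0.0445).

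Other PPAR alpha targets did not pass. Cyp4a14 had a large fold and a large error (2.48 ± 0.76, adjusted p = 0.0939), Acadm, the medium-chain dehydrogenase, stood at 0.31 ± 0.10, adjusted p = 0.135, and Cpt1a, the entry enzyme of mitochondrial oxidation, at 0.015 ± 0.10. Ppara itself was at -0.015 ± 0.12, with a 95% interval of -0.26 to 0.23. Fabp1, a fatty acid binding protein at low level here, read 88.1, 151 and 79.4 in wildtype and 173, 141 and 284 in deficient libraries (0.87 ± 0.32, adjusted p = 0.332), and the groups overlapped. Of the 18 tested genes of mitochondrial fatty acid oxidation only Hadha passed (median 0.14, 15 above 0), where 0.987% of all tested genes passed. In the peroxisomal list of 19, Ehhadh rose and Amacr, a racemase of branched fatty acids, fell (-0.33 ± 0.094, adjusted p = 0.0409), with a median of 0.017.

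Outside that list, further lipid genes rose, where 0.339% of all tested genes rose and 0.648% fell. Acacb, the acetyl-CoA carboxylase that controls fatty acid entry into mitochondria (0.44 ± 0.11, adjusted p = 0.0128), Elovl6 (0.55 ± 0.11, adjusted p = 0.000321) and Elovl3 were the risen members among 20 genes of fatty acid synthesis and elongation, of which 0 fell (median 0.056). Fasn, the synthase, did not pass (0.69 ± 0.29, adjusted p = 0.517). Acnat2 (0.67 ± 0.12, adjusted p = 6.86e-06) and its neighbour Acnat1 (0.61 ± 0.13, adjusted p = 0.000677), acyltransferases that join acyl groups to amino acids, Slc27a1, a fatty acid transporter (0.36 ± 0.10, adjusted p = 0.0447, also lost on centring), and Acsf2, an acyl-CoA synthetase (0.52 ± 0.13, adjusted p = 0.00688), rose. Cd36, a fatty acid receptor, fell (-0.34 ± 0.093, adjusted p = 0.0269). None of 22 cholesterol synthesis genes passed (median -0.028), nor did any of 15 glycolysis, 11 gluconeogenesis and fructose or 17 citric acid cycle genes. None of 10 adipocyte markers passed (median 0.29), and Lep, leptin, read 207, 1068 and 496 in wildtype and 38.3, 96 and 276 in deficient libraries. Adipoq, Plin1 and Fabp4, made by fat cells, stood at 0.17 ± 0.56, 0.18 ± 0.55 and 0.46 ± 0.30, and the part of fat cells in the lipid results was not tested.

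**Figure D4:**
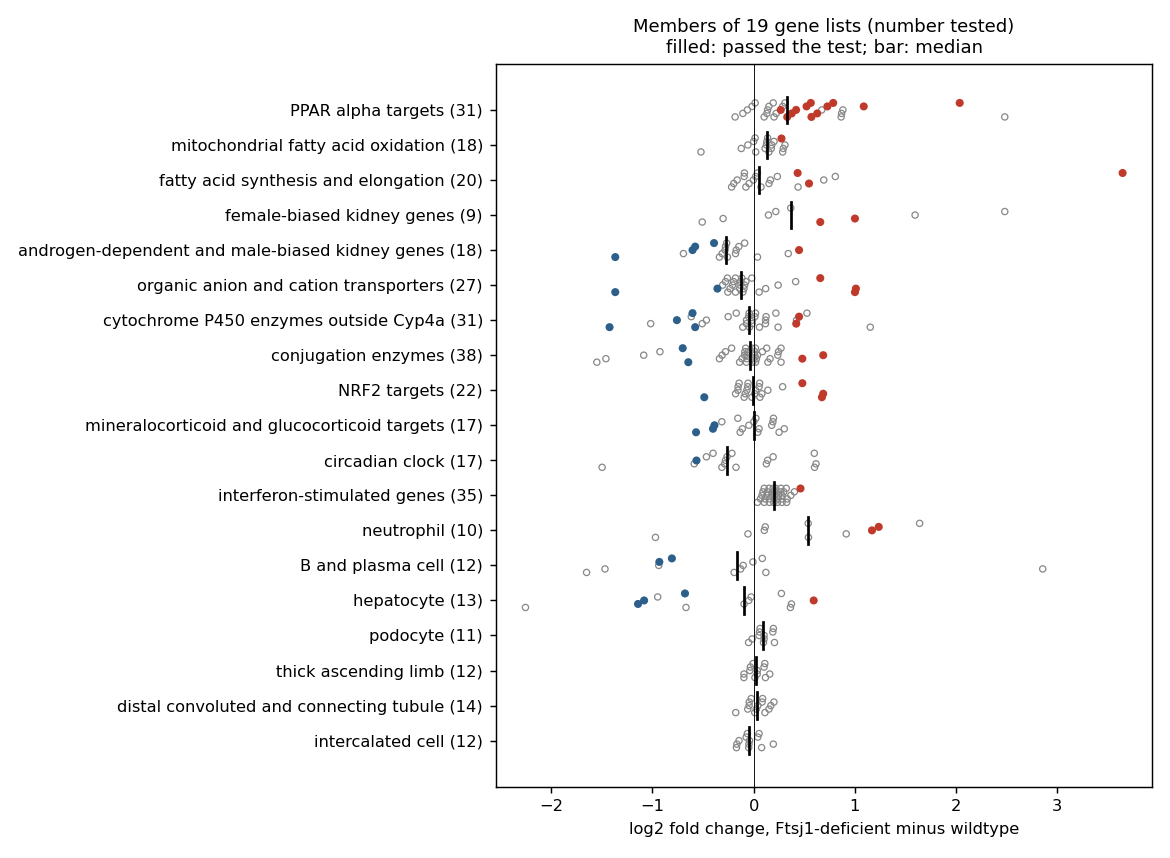
Log2 fold changes, Ftsj1-deficient minus wildtype, of the tested members of 19 gene lists; filled points passed the test (red risen, blue fallen), open points did not, and the black bar is the median of a list. PPAR alpha targets hold 12 risen and 0 fallen of 31, male-biased genes 1 risen and 4 fallen of 18, interferon-stimulated genes lie to the right of 0 in 35 of 35, and no podocyte, thick limb, distal tubule or intercalated cell marker passed. Among all tested genes 0.339% rose and 0.648% fell.

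Of 27 tested transporters of organic ions, 3 rose and 2 fell, beside 0.339% risen and 0.648% fallen over all tested genes, with a median of -0.13. The risen members Slc22a26 (1.01 ± 0.11, adjusted p = 8.83e-16), Slc22a29 (1.00 ± 0.14, adjusted p = 5.21e-09) and Slc22a19 (0.66 ± 0.10, adjusted p = 4.23e-08) are organic anion transporters that lie close together on chromosome 19, Slc22a26 within 5 tested genes of each of the other two, and implied levels of Slc22a26 were about 9176 in wildtype and 18498 in deficient kidney. The fallen members Slco1a1 (-1.37 ± 0.28, adjusted p = 0.000379) and Slco1a6 (-0.36 ± 0.089, adjusted p = 0.00903), anion transporters of the Slco family, are neighbours on chromosome 6. The main basolateral anion carriers Slc22a6 (-0.31 ± 0.093, adjusted p = 0.0911) and Slc22a8 (-0.18 ± 0.10, adjusted p = 0.932) did not pass. Slc10a2, which takes up bile acids at the apical membrane, was among the risen genes with the smallest p (0.75 ± 0.10, adjusted p = 3.44e-10), and Slc13a3, a dicarboxylate carrier of the proximal tubule, fell (-0.48 ± 0.079, adjusted p = 6.81e-07).

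Genes known to differ between male and female kidney were examined in these male mice. Of 18 tested male-biased or androgen-dependent genes 4 fell, 1 rose and 13 did not pass, beside 0.648% fallen and 0.339% risen over all tested genes. Their median was -0.27 with 3 above 0, where 51.3% of all tested genes were above 0. Those that fell were Slco1a1, to 38.8% of wildtype, the P450 enzymes Cyp4b1 (-0.60 ± 0.11, adjusted p = 1.17e-05) and Cyp2j13 (-0.58 ± 0.10, adjusted p = 1.1e-05), and Nudt19, a coenzyme A hydrolase (-0.39 ± 0.11, adjusted p = 0.038). The member that rose was Cyp7b1, an oxysterol hydroxylase (0.45 ± 0.12, adjusted p = 0.0239). Kap, the androgen-regulated protein that is among the most abundant of the table, stood at -0.18 ± 0.086 (adjusted p = 0.772) and Odc1 at -0.28 ± 0.16. Of 9 tested female-biased genes 2 rose, Slc22a29 and Slc22a19, and 0 fell (median 0.37). Slc7a12 (1.60 ± 0.49, adjusted p = 0.0962), an amino acid transporter of female kidney, and Prlr, the prolactin receptor (0.22 ± 0.33), did not pass.

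Enzymes of drug and steroid metabolism came from 3 lists, whose counts stand beside 0.339% risen and 0.648% fallen over all tested genes. Of 31 tested P450 enzymes outside the Cyp4a family 2 rose, Cyp7b1 and Cyp2d26 (0.42 ± 0.10, adjusted p = 0.00355), and 4 fell, Cyp4b1, Cyp2j13, Cyp2a5 (-0.76 ± 0.13, adjusted p = 3.94e-06) and Cyp2b10 (-1.42 ± 0.34, adjusted p = 0.00523), with a median of -0.04. Cyp2b10, a classic target of the receptor CAR, read 211, 221 and 103 in wildtype and 76.7, 48.6 and 78.4 in deficient libraries, and the neighbouring pseudogene Cyp2b27-ps 79.3, 99.3 and 70 and 27.1, 21.2 and 29.9. The groups were apart in both, but the pair may share reads. Among 38 conjugation enzymes the glutathione transferases Gsta1 (0.69 ± 0.14, adjusted p = 0.000275) and Gsta2 (0.48 ± 0.12, adjusted p = 0.00523) rose, while Ugt2a3 (-0.70 ± 0.19, adjusted p = 0.0214), a glucuronosyltransferase, and Nat8 (-0.64 ± 0.11, adjusted p = 9.9e-07), an acetyltransferase, fell (median -0.036). Gsta5 rose too (0.62 ± 0.11, adjusted p = 3.17e-06), as did Rdh16f2, of a family of retinol dehydrogenases (0.81 ± 0.14, adjusted p = 5.3e-06), Aldh1a7, an aldehyde dehydrogenase (0.67 ± 0.10, adjusted p = 1.52e-08), and the predicted gene Gm13855 (0.67 ± 0.12, adjusted p = 6.86e-06). Of 22 NRF2 targets, Gsta1, Gsta2 and Gclc, the catalytic subunit of glutathione synthesis (0.68 ± 0.14, adjusted p = 0.000345), rose and Osgin1 fell (-0.49 ± 0.13, adjusted p = 0.0146). The best known members Nqo1 (-0.14 ± 0.12), Hmox1 (-0.082 ± 0.14) and Gclm (-0.067 ± 0.15) did not pass, and the median was -0.0024.

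Most markers of nephron segments did not pass, where 0.987% of all tested genes passed. None of 11 podocyte, 12 endothelial, 8 thin limb, 12 thick ascending limb, 14 distal convoluted and connecting tubule, 10 principal cell, 12 intercalated cell or 8 urothelial markers passed the test, with list medians between -0.047 and 0.098. Of 20 markers of the early proximal tubule, Gatm, which makes the creatine precursor guanidinoacetate, rose (0.46 ± 0.10, adjusted p = 0.00102) and Slc13a3 fell, while Lrp2, the megalin receptor, stood at 0.018 ± 0.083, with a 95% interval of -0.15 to 0.18. Of 9 markers of the last proximal segment only Cyp7b1 passed. Ion transport showed 1 risen gene, Atp12a, a proton-potassium pump, which read 119, 43.3 and 56 in wildtype and 162, 294 and 198 in deficient libraries (1.54 ± 0.37, adjusted p = 0.00497), and 1 fallen gene, the cotransporter Slc12a7 (-0.34 ± 0.083, adjusted p = 0.00679), among 40 tested. None of 21 calcium, magnesium, phosphate and vitamin D genes, 17 water, urea and osmolyte genes, 30 amino acid transporters, 12 genes of ammonia formation or 5 markers of macula densa and renin cells passed. In the renin-angiotensin list of 17, the peptidases Ace (-0.42 ± 0.11, adjusted p = 0.0278) and Prcp (-0.28 ± 0.079, adjusted p = 0.0499) fell, and Ren1, renin, stood at 0.022 ± 0.11.

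Of 20 tested genes of tubular injury and repair 2 passed, beside 0.987% of all tested genes: Spp1, osteopontin (0.44 ± 0.12, adjusted p = 0.0169), and Fga, the fibrinogen alpha chain (0.59 ± 0.092, adjusted p = 7.18e-08), both rose. Havcr1, the injury molecule KIM-1 (-0.18 ± 0.17), and Lcn2, which read 563, 473 and 510.4 in wildtype and 491, 525 and 694 in deficient libraries, did not pass. Single members of other stress lists rose: Atf5 of the integrated stress response (0.35 ± 0.092, adjusted p = 0.0219; 1 of 23) and Cryab of the heat shock proteins (0.36 ± 0.088, adjusted p = 0.00857; 1 of 16). None of 20 chaperones of the endoplasmic reticulum, 18 hypoxia targets, 21 proliferation genes (median 0.18) or 19 iron and heme genes passed. Amino acid breakdown had 1 risen gene of 31, Kynu of the tryptophan pathway (0.79 ± 0.17, adjusted p = 0.00133), and Mgp, an inhibitor of calcification, fell (-0.37 ± 0.10, adjusted p = 0.0219; 1 of 29 matrix genes). For Lcn2 and Havcr1 the 95% intervals of the log2 fold change were -0.21 to 0.44 and -0.51 to 0.16.

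Several fallen genes encode plasma proteins that are best known from liver. Over all tested genes, 0.339% rose and 0.648% fell. Ttr, which carries thyroxine and retinol-binding protein (-1.14 ± 0.12, adjusted p = 1.45e-16), Serpina1a (-1.08 ± 0.16, adjusted p = 1.26e-08) and Serpina1c (-0.68 ± 0.11, adjusted p = 9.58e-08) fell and Fga rose among 13 hepatocyte markers (median -0.094), while Alb, albumin, stood at -0.047 ± 0.13. Pzp, a protease inhibitor of the macroglobulin family (-1.08 ± 0.13, adjusted p = 2.26e-13), fell as well. Outside the lists, Apcs, the serum amyloid P component, read 292, 219 and 213 in wildtype and 84, 105 and 183 in deficient libraries (-1.05 ± 0.28, adjusted p = 0.026). Among wildtype libraries, the middle one, high in adrenal genes, was not the highest for Apcs. It was the highest for Ahsg, fetuin, at 8.93, 175 and 0 in wildtype and 7.27, 2.49 and 29.9 in deficient libraries (-2.25 ± 2.07). The same held for the hepatocyte markers Apoa1 (250, 359 and 107 in wildtype), Cps1 (36.1, 103 and 17.1) and Fgb (614, 655 and 420). Ahsg, Apoa1, Cps1 and Fgb did not pass, and the part of this library in the fallen plasma protein genes was not tested.

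Igha, the constant region of immunoglobulin A (-0.93 ± 0.14, adjusted p = 7.45e-08), and Jchain, which joins its subunits (-0.81 ± 0.19, adjusted p = 0.00523), were 2 of 12 tested B and plasma cell markers, and none rose (median -0.16). The fallen share over all tested genes was 0.648%. Some variable segments fell, among them Ighv1-81, which read 1409, 807 and 817 in wildtype and 384, 317 and 429 in deficient libraries (-1.44 ± 0.22, adjusted p = 2.34e-08), Ighv1-22 (-1.63 ± 0.41, adjusted p = 0.01) and the low Igkv1-88 at 80, 30.5 and 32.7 against 6.61, 2.49 and 14.9. At a mean level under 100, Igkv4-74 (-3.45 ± 0.94, adjusted p = 0.0289), Ighv3-8 (-3.06 ± 0.87, adjusted p = 0.0453) and Igkv6-25 (-2.70 ± 0.61, adjusted p = 0.00239) fell as well. Leaving out 1 deficient library moved the log2 ratio of means between -5.31 and -3.06 for Igkv4-74, -3.78 and -2.37 for Ighv3-8, and leaving out 1 library of either genotype moved it between -3.39 and -1.98 for Igkv1-88. Single libraries stood out for other immunoglobulin genes: Ighg3, which did not pass, read 3.97, 628 and 48.5 in the deficient libraries with 13.3, 12.8 and 68.5 in wildtype, and Ighv1-76, which carries no p-value, 12.9, 17.7 and 364 in wildtype. Cd79a, a B cell receptor subunit, read 245, 301 and 333 in wildtype and 326, 282 and 317 in deficient libraries and did not pass.

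S100a8 and S100a9, the subunits of calprotectin, rose (1.24 ± 0.35, adjusted p = 0.0447 and 1.17 ± 0.31, adjusted p = 0.0192) and were 2 of 10 tested neutrophil markers (median 0.54). The risen share over all tested genes was 0.339%. S100a8 read 75.8, 73.8 and 62.2 in wildtype and 204, 81 and 224 in deficient libraries, and S100a9 113, 59 and 110.5 and 282, 169 and 179, so that the middle deficient library lay just above the wildtype range for S100a8. Csf3r, the receptor for granulocyte growth factor, read 332, 398 and 373 against 506, 491 and 619.7, and although the groups were apart it did not pass (0.54 ± 0.16, adjusted p = 0.0648). Ly6g and Camp, defining genes of neutrophils, had mean levels of 2.03 and 3.07 and were not tested. None of 12 macrophage and dendritic cell, 12 T and NK cell, 8 erythroid or 5 skeletal muscle markers passed, nor did any of 18 antigen presentation genes.

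Of 35 tested interferon-stimulated genes, 35 had a log2 fold change above 0 (median 0.21, against 51.3% of all tested genes above 0). But only Gbp7, a guanylate-binding protein, passed (0.46 ± 0.11, adjusted p = 0.00235), where 0.987% of all tested genes passed. Mx1 read 284, 341 and 501 in wildtype and 385, 545 and 343 in deficient libraries, and Usp18 336, 329 and 420.2 and 454, 416 and 392, and the groups overlapped in both. Of 17 acute phase and complement genes, Saa3 fell, from 10.6, 45.2 and 84 in wildtype to 5.95, 2.49 and 7.47 in deficient libraries (-3.19 ± 0.82, adjusted p = 0.0158; log2 ratio of means -2.40 without the shallowest wildtype library), and so did C4b, a complement component (-0.64 ± 0.13, adjusted p = 0.000428). Its near copy C4a, also fallen, read 745, 724 and 498 against 322, 346 and 392, and the pair may share reads. Il34, a ligand of the receptor that keeps macrophages alive, fell too (-0.88 ± 0.13, adjusted p = 1.46e-08).

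A few targets of corticosteroids fell. Of 17 tested mineralocorticoid and glucocorticoid targets 3 fell and 0 rose, beside 0.648% and 0.339% of all tested genes (median 0.0024): Per1, a period gene of the clock (-0.57 ± 0.15, adjusted p = 0.0252), Klf15, a regulator of amino acid and lipid use (-0.40 ± 0.11, adjusted p = 0.0219), and Tsc22d3, the anti-inflammatory protein GILZ (-0.39 ± 0.11, adjusted p = 0.038). Fkbp5, another glucocorticoid target, stood at 0.041 ± 0.18 and the receptor Nr3c1 at 0.0024 ± 0.11. Per1 was the only one of 17 clock genes to pass, and others had large folds with large errors, such as Dbp at -1.50 ± 0.87 and Arntl at 0.62 ± 0.45 (list median -0.26). The hour of tissue collection is not known here, and its part in these values was not tested. Of 26 immediate early genes, Fos rose, from 190.0, 218 and 294 in wildtype to 493, 388 and 384 in deficient libraries (0.88 ± 0.21, adjusted p = 0.00404), and Myc rose (0.46 ± 0.13, adjusted p = 0.0362), whereas Ier3 (-0.50 ± 0.14, adjusted p = 0.0435) and Ccn2 (-0.44 ± 0.10, adjusted p = 0.00272) fell.

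Promoters of genes that moved were searched for 4 motifs on both strands, in the RefSeq window of 250 bases before to 50 after each start in GRCm38.p6, where a gene can have several starts. Of the genes that passed, 55 risen and 99 fallen ones had a promoter. The E-box CACGTG, a site read by clock factors, was found in 8 of 99 fallen (8.08%) and 2 of 55 risen genes (3.64%), against 10.3% of the 14499 tested genes with a promoter and 8.09% of all 27025. The D-box TTATGTAA was found in 1 gene of each direction, Slc22a26 (risen) and Ces1g (fallen), against 0.876% of tested genes and 1.11% of all. A PPAR element was in 0 of both sets and in 13 promoters in all, and a palindromic glucocorticoid element in Acnat2, a risen gene, and 3 promoters in all. These shares describe the searched windows only. The 4 promoters below were picked from the matches, after their values were seen, to show 1 or 2 genes per motif, and are shown 5′ to 3′ on the gene's strand with each match in capitals. They are Per1 (chr11:69098699-69098998, plus strand, first base of the match at -166), Klf15 (chr6:90462326-90462625, plus strand, 3 matches), Slc22a26 (chr19:7802618-7802917, minus strand) and Acnat2 (chr4:49408102-49408401, minus strand).
Per1: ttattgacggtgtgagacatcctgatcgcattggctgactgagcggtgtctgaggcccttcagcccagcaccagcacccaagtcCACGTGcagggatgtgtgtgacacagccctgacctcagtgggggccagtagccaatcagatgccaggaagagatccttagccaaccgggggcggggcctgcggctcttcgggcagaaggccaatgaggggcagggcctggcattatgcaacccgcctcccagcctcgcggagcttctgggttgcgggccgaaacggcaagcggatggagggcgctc
Klf15: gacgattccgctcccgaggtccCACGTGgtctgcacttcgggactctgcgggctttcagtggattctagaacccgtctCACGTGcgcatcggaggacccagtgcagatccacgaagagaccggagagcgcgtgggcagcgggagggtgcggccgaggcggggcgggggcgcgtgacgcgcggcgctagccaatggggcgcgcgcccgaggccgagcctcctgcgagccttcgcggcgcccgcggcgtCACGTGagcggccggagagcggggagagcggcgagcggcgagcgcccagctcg
Slc22a26: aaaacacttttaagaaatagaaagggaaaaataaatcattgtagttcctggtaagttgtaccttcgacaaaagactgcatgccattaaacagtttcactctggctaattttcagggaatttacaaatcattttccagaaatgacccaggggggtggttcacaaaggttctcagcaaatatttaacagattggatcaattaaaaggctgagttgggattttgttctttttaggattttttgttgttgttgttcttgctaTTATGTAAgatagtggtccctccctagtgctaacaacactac
Acnat2: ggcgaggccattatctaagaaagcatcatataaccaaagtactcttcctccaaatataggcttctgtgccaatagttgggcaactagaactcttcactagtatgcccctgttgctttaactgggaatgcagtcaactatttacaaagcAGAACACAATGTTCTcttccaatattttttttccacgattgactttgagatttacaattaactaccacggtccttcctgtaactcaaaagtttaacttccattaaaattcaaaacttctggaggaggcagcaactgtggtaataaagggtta

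The order of genes along chromosomes was examined next. Of 222 genes past the test that could be placed by RefSeq order, 56 (25.2%) had another among the 5 tested genes on either side, beside 9.43% of all 21008 tested genes placed, in 37 pairs, of which 29 moved in the same direction. Pairs from 1 gene family include Acot1, Acot2 and Acot3 on chromosome 12 and the Slc22a group on chromosome 19. In the Cyp4 cluster on chromosome 4, Cyp4a10 and Cyp4a31 rose while Cyp4a32 (-0.50 ± 0.14, adjusted p = 0.0445) and Cyp4b1 fell. Reads of near-identical copies may have been split between neighbours, so the values of single family members are uncertain.

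Fold changes in kidney were set against those in the other organs of the same 6 mice. The difference of the authors' deposited log2 fold changes was tested gene by gene with a Wald test, adjusted over every gene whose mean level reached 10 in both organs. As the organs share mice, the errors of a pair are not fully independent, and nothing is read from an overlap between organs. For scale, the authors' tables call 0.0607% of tested genes in brain, 0.541% in heart, 2.29% in liver and 0.0741% in spleen, against 0.987% in kidney. Of the genes that passed in kidney, 41 of 190 differed from brain (0.224% of all genes tested differed), 10 of 189 from heart (0.154%), 39 of 206 from liver (0.819%) and 13 of 189 from spleen (0.0945%); these genes were chosen for their kidney fold, which widens the gap to any other organ.

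Pdk4 stood at 1.09 ± 0.24 in heart and 1.25 ± 0.54 in liver, beside 1.09 in kidney (neither difference passed), and at -0.048 ± 0.11 in brain, where the difference passed (adjusted p = 1.51e-08). Synpr and Cntnap5a, known as brain genes, stood at -0.0072 ± 0.086 and 0.10 ± 0.10 in brain, and both differences passed (adjusted p = 1.47e-12 and 8.54e-25). Gm49692 differed from all 4 organs, with 0.23 ± 0.24 in brain, 0.61 ± 0.34 in heart, 0.091 ± 0.56 in liver and 0.085 ± 0.46 in spleen.

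Several genes passed in both organs in opposite directions. Aldh1a7 rose in kidney and fell in heart (-1.65 ± 0.44, adjusted p of the difference = 0.000718), and Lrrc15 fell in kidney and rose in heart (0.58 ± 0.15, 4.89e-06). Against liver the same held for Crybg2 (-0.92 ± 0.25, 2.19e-06), Cyp4a32 (1.03 ± 0.22, 5.49e-06), Clstn3 (-0.99 ± 0.26, 5.39e-05) and Ighv1-81 (1.16 ± 0.35, 1.04e-06). Fos rose in kidney and fell in brain (-0.75 ± 0.16, 1.77e-06). Cyp2b10 stood at 1.68 ± 0.63 in liver against its fall in kidney, and the difference passed (adjusted p = 0.00502), although the liver value by itself did not (0.167). For Cyp4a10 (1.64 ± 0.24), Acot1 (1.14 ± 0.25) and Slc22a26 (3.45 ± 0.84) liver folds were on the same side as those of kidney and the differences did not pass (adjusted p = 0.202, 0.813 and 0.232).

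**Figure D5:**
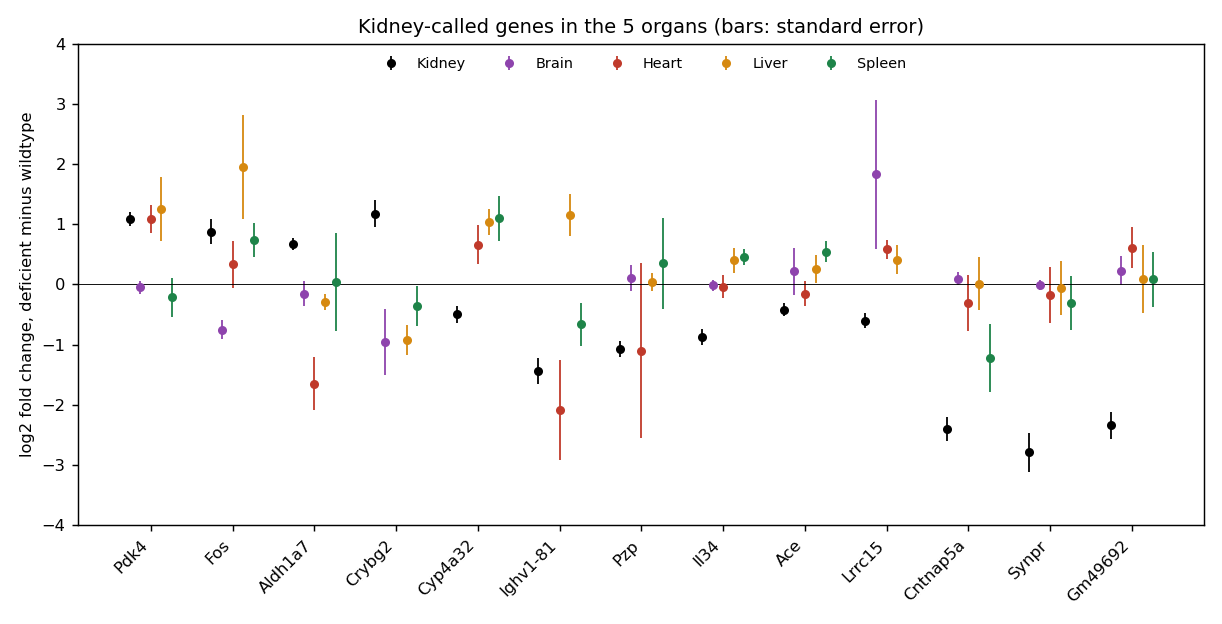
Log2 fold changes, Ftsj1-deficient minus wildtype, with standard errors as deposited, of 13 genes that passed in kidney (black), in kidney and in each other organ where their mean level was 10 or more (brain purple, heart red, liver orange, spleen green). Pdk4 stands at 1.09 in kidney and in heart, and Synpr and Cntnap5a fall by 2.79 and 2.40 in kidney with brain values near 0.

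The same kidneys were also sequenced after depletion of ribosomal RNA, and the authors' deposited table of long non-coding genes from those libraries gives a second measurement of the same mice. Of its 3661 tested genes 15 passed (0.41%), 1 rising and 14 falling. Among the genes that passed in the poly-A libraries, 19 are in that table, 15 of them with the same sign. Both tables called Gm30551 (-1.84 ± 0.18 in the depleted libraries), Gm49692 (-2.04 ± 0.22), Gm15895 (-1.48 ± 0.20) and Gm28905 (-0.88 ± 0.15), all fallen, and Halr1 (0.68 ± 0.17), risen. The 4 of opposite sign did not pass there: Gm33979 (0.62 ± 0.45), Gm42707 (0.61 ± 0.46), 1700013N06Rik (0.35 ± 0.19) and 2810030D12Rik (0.24 ± 0.17). Of the 10 genes called in the depleted libraries only, 5 are listed at 0 in the poly-A table, among them Cdr1os (-1.37 ± 0.17, adjusted p = 1.82e-12). Gm10069 fell in the depleted libraries (-0.89 ± 0.14) but stood at -0.039 ± 0.14 in the poly-A ones.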

How the data were processed

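Poly-A libraries of 6 kidneys were compared; the genotype of each sample came from its title. Per the submitters' processing notes, the authors used GRCm39, featureCounts, Subread 2.0.3 and DESeq2 to make the deposited tables; an aligner, annotation or strand setting is not named there. Per the file headers, the authors deposited the mean normalised signal over libraries, log2 fold changes and their standard errors, the Wald score, p-value and adjusted p-value; reads of single libraries were worked out from these values and described, and no count test was run on them. An unnamed row with 5.9e-07% of the summed level was left out.

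Size factors were worked out from genes with 1 read in 1 library, and whole reads per library by a search that had to return the deposited mean level. Where several sets did, the accepted set gave the deposited log2 fold change within 1e-04 by a negative binomial fit of both groups, with the next best set 20 times further away. The search was tested on simulated data. The genotype of a library came from the median deposited fold change of genes read only there. A library was taken as wildtype where this median was lower at the highest than at the lowest number of reads, and otherwise as deficient. Its sign was to be used only where a single number of reads was found. Implied group levels differ from the means of worked-out reads by a median of 0.731% (60 genes, at most 15.6%).

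Members and gene lists (60 lists, 984 genes, 9 not in the table, 42 listed at 0) were chosen with earlier results of these data known. Named genes are Ftsj1, up to 12 per direction with the smallest adjusted p, up to 10 per direction with the largest fold, both at a mean level of 100 or more, up to 6 per direction with the largest fold at 10 to 100, list members, and up to 6 per organ that differ most; Zfp978, Rex2, Apcs, Rab3c, Alox15, Acnat1, Acnat2, Acsf2, Slc27a1, Cd36, C4a, Cyp4a32, Cyp2b27-ps, Clstn3, Ces1g and the genes of 1 library were named after their values were seen. Kidney and organ folds were compared by a Wald test of their difference. Alternatives were a stricter threshold, other gene sets for the adjustment, centring, and a rescaled Wald score. Analysis used Python 3.11.15 with pandas 2.3.3, numpy 2.4.6, scipy 1.17.1 and numba 0.67.0. Results of some genes are not reported here, although the counts over lists and tables include them.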

Additional observations from a re-analysis of the deposited data

Results flagged for a closer look

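The following kidney genes had fold changes that differed from another organ of the same mice, by the Wald test of the difference adjusted over every gene whose mean level reached 10 in both organs. They are among the 6 with the smallest adjusted p per organ among genes that passed in kidney, and each value is the log2 fold change in kidney minus that in the other organ.

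Against brain, the differences were -2.50 for Cntnap5a, -2.78 for Synpr and -2.58 for Gm49692, which all fell in kidney. They were 1.14 for Pdk4 and 1.63 for Fos, which rose in kidney. Against heart, they were 2.32 for Aldh1a7, -2.95 for Gm49692, -1.18 for Lrrc15, -1.03 for Ly6e and -1.08 for Anks1b.

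Against liver, they were -2.60 for Ighv1-81, 2.10 for Crybg2, -1.53 for Cyp4a32, -1.12 for Pzp and 0.96 for Aldh1a7. Against spleen, they were -1.34 for Il34, -1.18 for Vwa1, -2.43 for Gm49692, -0.96 for Ace and -2.49 for Synpr. The adjusted p of these 20 differences ran from 8.54e-25 to 0.0182.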

How the results depend on the processing

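The counts of 79 risen and 151 fallen genes stayed within 1.5 times under 4 of 6 alternatives. With an adjusted p under 0.01, 48 rose and 96 fell, and of the list genes 23 rose and 17 fell, from 35 and 29; 7 of the 12 PPAR alpha targets kept the call, and 0 of the neutrophil, corticosteroid, clock and renin-angiotensin members did. With the Wald statistic divided by its robust SD of 0.888, 124 rose and 228 fell. Adjusting over all genes with a p-value, 27 of the 230 genes lost the call, and centring on the median ended 4 (Hadha, Slc27a1, Prom1 and Med26). Raising the mean level to 100 left 215 of the 230 in the test, all still called. The counts of genes that differ from another organ stayed within 1.5 times in all 8 runs.

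No paired analysis was possible because the mouse numbers of the 2 genotypes are not shared within an organ and libraries could not be tied to mice. A refit of the whole table without 1 library or with the set of brothers as a block was not run, since reads were worked out for low genes only; this includes the middle wildtype library high in adrenal genes and the deepest deficient one high in pancreas genes. For the 60 genes with reads, an alternative added after seeing the data left out each library: the ratio of means moved by over 1.5 times from its value with all 6 in 9 genes, namely, as log2 ratios, Elovl3 (3.14 to 4.82), Rab3c (-2.52 to -1.02), Alox15 (-2.67 to -1.20), Saa3 (-3.61 to -2.40), Ighv3-8, Igkv1-88, Igkv4-74, Igkv6-25 and Igkv6-32.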
